A study of Homo sapiens with 6 samples.

Results

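The S100 genes encode small calcium-binding proteins, and 10 of them were followed in WM164, an established human melanoma cell line: S100B, S100A1, S100A2, S100A3, S100A4, S100A6, S100A11, S100A13, S100A16 and S100P. They were chosen by gene symbol, are 10 of the 60504 genes in the table and include 10 of its 21 S100 family genes. The cells carried the BRAFV600E genotype in both groups. One group had been transfected with an empty expression vector (EV) and the other with an HDAC8 expression vector, HDAC8 being an enzyme that removes acetyl groups from histones and other proteins. There were 3 RNA-seq libraries of each kind, which the labels call biological replicates without saying that they came from separate cultures. According to the study's methods both kinds of transfected cells were kept in hygromycin, and whether each line is a single clone is not given there.

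An S100 protein carries a pair of EF-hand loops that bind calcium, and most members work as dimers. Calcium opens a face of the dimer that grips target proteins such as annexins or non-muscle myosin, and several members are also released from cells, where they bind receptors such as RAGE. In the pigment cell lineage S100B is used in the clinic as a tissue and blood marker of melanoma. Most S100 genes lie side by side on the long arm of chromosome 1, while S100B lies on chromosome 21 and S100P on chromosome 4.

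Total counts ran from 34741083 to 42041462 per library and overlapped between the groups. The transcript of HDAC8 itself had normalized counts (counts divided by the library's DESeq2 size factor) of 383.8, 404.4 and 478.8 in EV 1 to 3 and of 484.8, 445.5 and 473.7 in HDAC8 1 to 3. The groups overlapped and their difference was 0.15 on the log2 scale (SE 0.28, adjusted p of DESeq2 0.856), which gives no check on which libraries carry the HDAC8 vector, so HDAC8 and EV name libraries by their labels throughout. HDAC8 1 stood apart from HDAC8 2 and 3 on the second principal component (12.49 against -9.72 and -4.27). Among 7 melanocyte markers, PMEL, TYR, DCT, MITF and SOX10 were abundant and TYRP1 was at or below 62.9 normalized counts in every library. MLANA had 8618.5, 8323.2 and 9052.3 normalized counts in EV 1 to 3 and 236.9, 300.1 and 372.4 in HDAC8 1 to 3. The summed level of the 7, most of it PMEL, was 243744 to 327504 normalized counts in EV and 136368 to 181340 in HDAC8. By the rule given in the next paragraph, 4 of the 7 (MLANA, TYR, DCT and PMEL) were called lower, where 5.44% of all genes were. Mitochondrial transcripts took 9.66% to 12.8% of counts in EV and 4.46% to 7.94% in HDAC8. The part of either shift in the S100 values was not tested. In bulk RNA, fewer cells expressing a gene and less of its RNA per cell cannot be told apart.

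Among the 10 S100 genes, S100A3 was called higher and S100A1 and S100B were called lower in the libraries labelled HDAC8. Calls required a Benjamini-Hochberg adjusted p under 0.05 from DESeq2, taken over all genes, together with a log2 fold change of 0.58 or more either way. By that rule 1 of the 10 was called higher and 2 lower, where 11.0% of all genes with an adjusted p were called, 5.57% of them higher and 5.44% lower. DESeq2 gave 9 of the 10 an adjusted p, S100P being the exception. In 6 of the 10 the groups did not overlap, which was so in 24.0% of the genes tested. The median log2 fold change of the 10 was 0.08 and that of all genes tested was -0.00012. The 10 therefore did not move one way as a family.

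**Figure D1:**
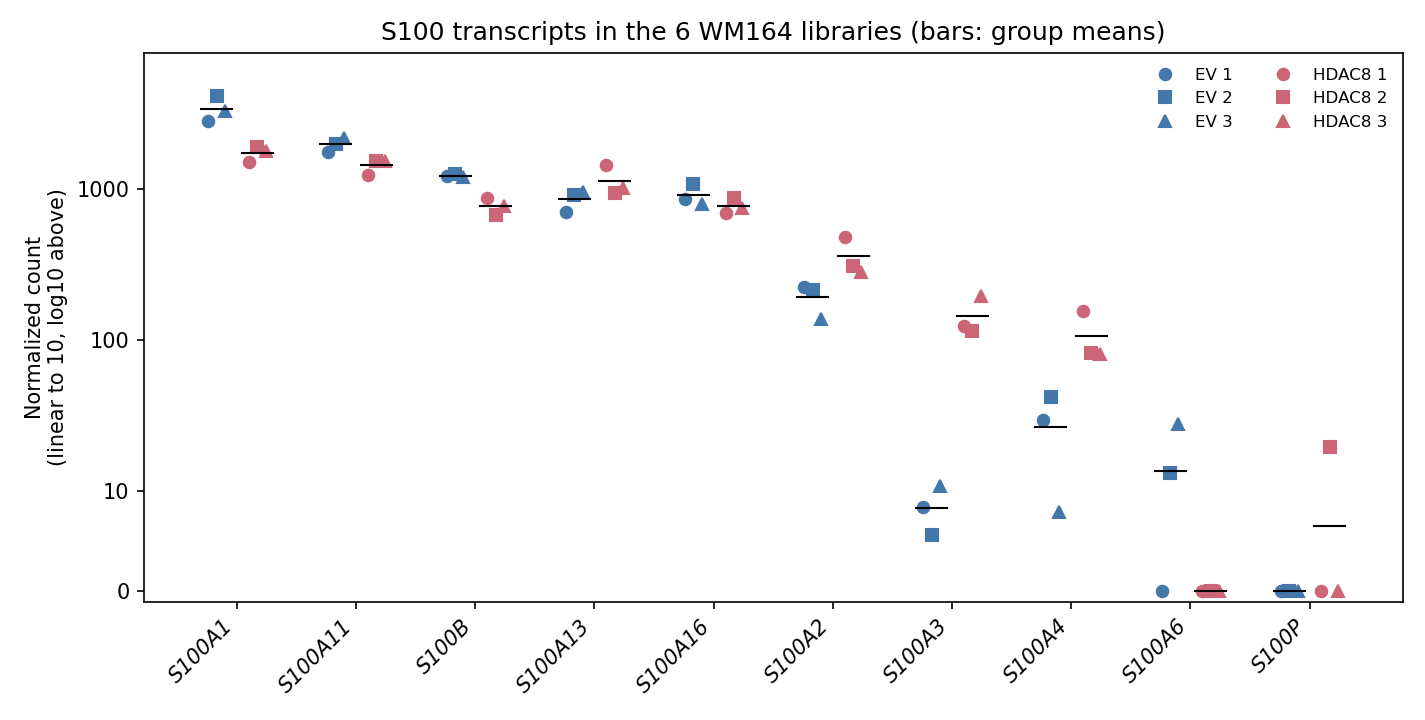
Normalized count (vertical axis, linear up to 10 and log10 above) of the 10 S100 genes (horizontal axis) in each of the 3 EV (blue) and 3 HDAC8 (red) libraries, with black bars at the group means. S100A3 sits at 5.6 to 10.8 in EV and at 114.7 to 196.0 in HDAC8, while every HDAC8 library lies below every EV library for S100A1, S100B and S100A11.

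S100A3, a member known from the hair cuticle, showed the largest difference of the called S100 genes. It had 8.4, 5.6 and 10.8 normalized counts in EV 1 to 3 and 124.0, 114.7 and 196.0 in HDAC8 1 to 3. All HDAC8 libraries were high and all EV libraries low, with no overlap. The means were 8.28 ± 2.62 and 144.9 ± 44.5 (SD, n = 3), a change of 4.13 on the log2 scale (SE 0.71, DESeq2 adjusted p = 3.39e-07), which is 17.5-fold. The deposited EV values behind it were only 8, 6 and 11 counts, so the size of the fold is loose, with a 95% interval of 2.73 to 5.53 on the log2 scale. S100A3 was called in each of 13 alternatives, with log2 values between 3.85 and 4.37.

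S100A4, also called metastasin, binds non-muscle myosin heavy chains and is studied in tumour spread, and its gene is the neighbour of S100A3 on chromosome 1. Normalized counts were 29.4, 42.0 and 7.9 in EV 1 to 3 and 156.5, 81.9 and 80.6 in HDAC8 1 to 3. The groups did not overlap, but the EV libraries spread widely and HDAC8 1 was well above the other HDAC8 libraries. The difference was 2.01 on the log2 scale (SE 0.79, DESeq2 adjusted p = 0.0751), past the fold minimum and not past the p threshold, with a 95% interval of 0.45 to 3.56. Without HDAC8 replicate 1 it was 1.62 (DESeq2 adjusted p = 0.294) and without EV replicate 2 it was 2.52 (DESeq2 adjusted p = 0.0552).

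S100A2, a member found in basal keratinocytes, had 225.4, 214.8 and 138.9 normalized counts in EV 1 to 3. In HDAC8 1 to 3 it had 480.6, 310.3 and 284.2. The groups did not overlap and HDAC8 1 was the highest. The difference was 0.89 on the log2 scale (SE 0.39, DESeq2 adjusted p = 0.126), not called. When only genes with at least 10 counts in every library were tested, the adjusted p was 0.0372 at a log2 fold change of 0.90. Without HDAC8 replicate 1 the log2 fold change was 0.62 (DESeq2 adjusted p = 0.395). Of 6 keratinocyte markers none was called, where 11.0% of all genes were. Their summed level was 170.9 to 303.4 normalized counts in EV and 165.5 to 176.2 in HDAC8. Most of it was KRT10, at 108.3 to 239.1 in EV and 131.7 to 176.2 in HDAC8. KRT5 reached 63.0 in EV 3, KRT1 was at 0 throughout and KRT14 at or below 25.0.

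Sequence before the start of 4 of these genes is shown because S100A3, S100A4 and S100A2 lie next to each other with S100A3 called higher, while S100A1 at the other end of the cluster was called lower. Positions are those of RefSeq on GRCh38.p14, the strand printed is that of the gene, 5′ to 3′, and position -1 is the base before the annotated start. Stretches that GENCODE annotates as exons were left out. Capitals mark matches to the searched motifs, which were the AP-1 site spelled TGANTCA, the E-box spelled CACGTG, the core of the M-box known to bind MITF and spelled CATGTG, the TEAD site spelled GGAATG, and the TATA box spelled TATAAA, each on both strands. No match of these motifs overlapped another.
S100A3, chr1:153549259-153549508, minus strand: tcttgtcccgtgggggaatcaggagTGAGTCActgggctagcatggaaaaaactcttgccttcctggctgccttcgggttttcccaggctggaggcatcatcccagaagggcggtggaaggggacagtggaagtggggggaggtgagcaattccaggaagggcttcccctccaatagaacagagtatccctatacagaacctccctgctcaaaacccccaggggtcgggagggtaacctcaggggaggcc
S100A4, chr1:153545807-153546056, minus strand: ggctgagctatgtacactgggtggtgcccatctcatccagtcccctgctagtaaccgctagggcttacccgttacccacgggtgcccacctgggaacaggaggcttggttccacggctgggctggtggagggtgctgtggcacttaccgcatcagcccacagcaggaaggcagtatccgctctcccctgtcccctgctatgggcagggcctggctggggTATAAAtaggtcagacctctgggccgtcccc
S100A2, chr1:153565845-153566094, minus strand: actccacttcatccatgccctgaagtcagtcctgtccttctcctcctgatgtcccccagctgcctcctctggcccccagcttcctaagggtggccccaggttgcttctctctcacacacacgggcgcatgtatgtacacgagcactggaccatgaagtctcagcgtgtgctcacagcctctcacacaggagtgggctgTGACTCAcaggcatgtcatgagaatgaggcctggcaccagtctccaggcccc
S100A1, chr1:153628249-153628383, plus strand: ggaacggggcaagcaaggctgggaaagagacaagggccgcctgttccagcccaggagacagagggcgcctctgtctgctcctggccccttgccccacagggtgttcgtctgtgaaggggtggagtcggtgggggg
The S100A3 stretch holds an AP-1 match, TGAGTCA, at -225 to -219 and the S100A2 stretch holds one, TGACTCA, at -52 to -46. S100A4 holds a TATA box at -31 to -26. The S100A1 stretch, which covers positions -185 to -51, has none of the 5. RefSeq gave 13 start windows of 250 bases for 9 of the 10 genes, S100B not among them. Of the 13 windows, 2 held an AP-1 match, against 6.57% of all 35116 promoter windows of that length. TATAAA was in 3 of the 13 (10.7% of all), CATGTG in 3 (9.42%), GGAATG in 1 (11.9%) and CACGTG in 0 (6.34%). A match is a run of letters and not a measured site.

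S100A1 and S100B, which can pair with each other as a heterodimer, were the S100 genes called lower. S100A1 is best known from heart muscle, where it regulates calcium release channels. It had 2815.5, 4122.4 and 3302.1 normalized counts in EV 1 to 3 and 1504.1, 1908.0 and 1797.9 in HDAC8 1 to 3. Every HDAC8 library was below every EV library. The means were 3413.3 ± 660.5 and 1736.6 ± 208.8 (SD, n = 3), a change of -0.98 on the log2 scale (SE 0.19, DESeq2 adjusted p = 1.00e-05), or 1.97-fold lower. It was called in 13 of 14 alternatives, from -1.10 to -0.82. In the remaining one, a DESeq2 test of whether the change exceeds the fold minimum, the call was lost (adjusted p = 0.603). S100A1 lies on the plus strand and shares 235 exonic bases with S100A13 on the minus strand, and whether counting used strand is not given in the sources used here.

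S100B had 1216.4, 1256.1 and 1207.8 normalized counts in EV 1 to 3, a narrow range. HDAC8 1 to 3 had 877.3, 675.9 and 772.1, all below the EV libraries. The means were 1226.8 ± 25.8 and 775.1 ± 100.7 (SD, n = 3). The difference was -0.66 on the log2 scale (SE 0.21, DESeq2 adjusted p = 0.0188), or 1.58-fold lower, with a 95% interval of -1.08 to -0.25. This call lay near both thresholds. It was lost in the test against the fold minimum (adjusted p = 1.0), with limma-voom (adjusted p = 0.0542), with a replicate block in DESeq2 (0.0662) and in 5 of the 6 DESeq2 fits that left out one library, with values from -0.76 to -0.57. edgeR's quasi-likelihood test kept it (adjusted p = 0.0298). The direction was downward in all 14 alternatives.

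**Figure D2:**
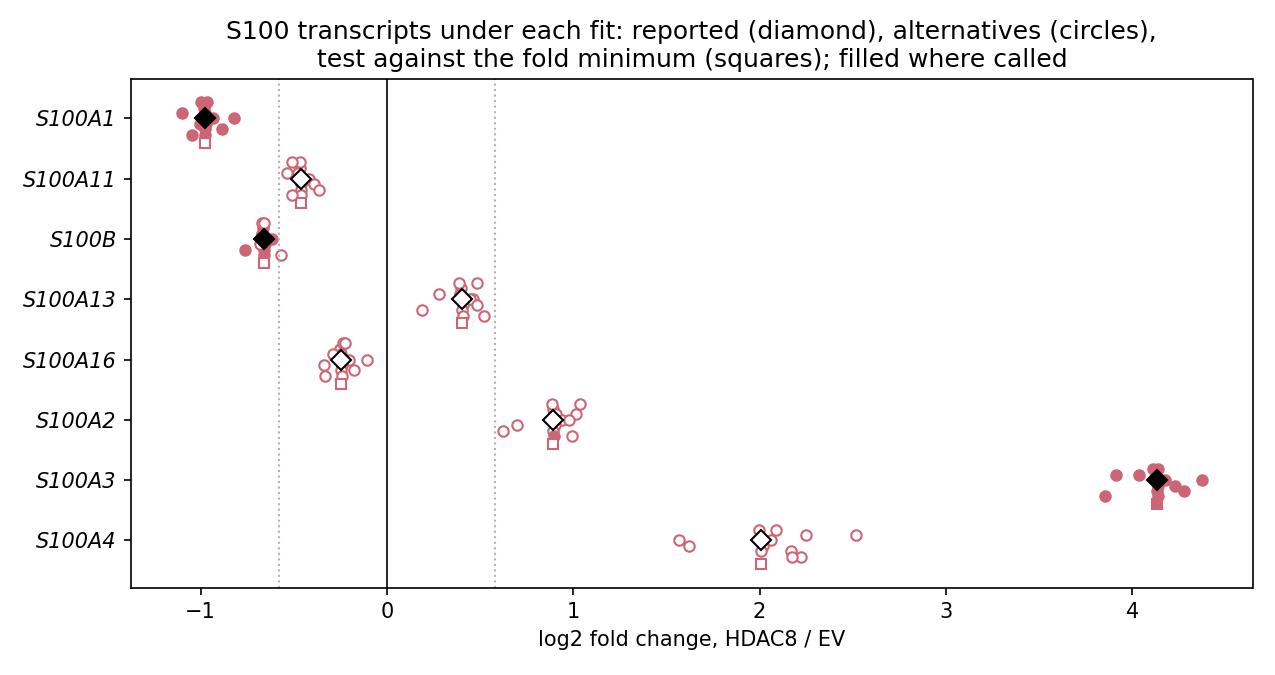
log2 fold change of HDAC8 over EV (horizontal axis) for the 8 S100 genes with counts in both groups (vertical axis), as reported (diamonds) under each alternative fit (circles) and in the test against the fold minimum (squares), filled where called, with dotted lines at 0.58 in either direction. S100A3 is filled throughout, S100A1 in all but the test against the fold minimum, S100B near -0.66 is filled in only some fits, and S100A4 is open at all its values from 1.57 to 2.52.

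The abundant members S100A11, S100A13 and S100A16 were not called. S100A11, which binds annexin A1 and serves in membrane repair, had 1775.3, 1993.9 and 2185.0 normalized counts in EV 1 to 3 and 1240.7, 1544.4 and 1538.7 in HDAC8 1 to 3. All HDAC8 libraries were lower, with a change of -0.46 on the log2 scale (SE 0.19, DESeq2 adjusted p = 0.0886), under the fold minimum, and a 95% interval of -0.83 to -0.09. S100A13, which takes part in the release of FGF1 from cells, had 705.7, 913.4 and 960.5 in EV 1 to 3. In HDAC8 1 to 3 it had 1451.9, 947.3 and 1011.6, so HDAC8 1 alone stood far above the EV range. Its change was 0.40 on the log2 scale (SE 0.25, DESeq2 adjusted p = 0.342), and 0.19 without HDAC8 replicate 1. S100A16, a widely expressed member, had 855.7, 1081.5 and 800.9 against 694.3, 868.5 and 750.3, overlapping groups with a log2 fold change of -0.24 and a 95% interval of -0.71 to 0.22 (DESeq2 adjusted p = 0.632). These intervals still hold changes past the fold minimum for each of these genes, so equal levels are not shown.

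S100A6 and S100P were close to absent. S100A6, or calcyclin, is abundant in many dividing cells. Here it had 0, 14 and 28 counts in EV 1 to 3 and 0 in each HDAC8 library (DESeq2 adjusted p = 0.162). S100P, first found in placenta, had 0 counts in 5 libraries and 19 in HDAC8 2. A library at 0 allows up to 3 counts, or 2.57 to 3.27 normalized counts depending on the library, for counting error only. Values of this size in a single library were common in the table: 4649 genes had counts in exactly 1 of the 6 libraries, and 1838 of these had at least 10 counts there. No direction was read from either gene.

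Levels of different genes can be compared only per length, as counts per kilobase of the longest annotated transcript, scaled to the same total in every library. On this scale S100A11 was the highest of the 10 members, with 237.6 ± 11.96 in EV and 199.4 ± 21.9 in HDAC8 (SD, n = 3). S100A1 (87.5 ± 11.9 in EV), S100B (74.9 ± 5.80), S100A16 (52.6 ± 7.71) and S100A13 (26.4 ± 2.26) followed, and then S100A2 (13.5 ± 4.01) and S100A4 (2.38 ± 1.52). S100A1 and S100B overlapped in EV, at 79.8 and 81.4 in EV 1. In HDAC8, S100B (54.6 ± 8.18), S100A1 (51.6 ± 5.37) and S100A16 (51.2 ± 4.72) were not separable from each other by the spread of the libraries. S100A13 (40.7 ± 10.5) overlapped each of them and S100A2 (28.7 ± 8.91) in HDAC8. S100A3 (15.3 ± 4.88) and S100A4 (11.0 ± 4.66) likewise overlapped there. The place of S100A1 rests on the length used, since its longest annotated transcript is 2621 bases and its Ensembl canonical one 559. With canonical lengths S100A1 had the highest mean, at 356.4 ± 48.5 in EV and 206.3 ± 23.3 in HDAC8, and S100A13 came before S100B. S100A11 had 206.6 ± 11.6 in EV and 170.0 ± 20.0 in HDAC8 on that scale, and its HDAC8 libraries overlapped those of S100A1. The summed level of the 10 members ran from 488.9 to 507.5 in EV and from 446.0 to 463.6 in HDAC8 on the longest-transcript scale. S100A1 made up 16.1% to 19.9% of that sum in EV and 10.1% to 12.4% in HDAC8, and S100B 14.4% to 16.5% and 10.4% to 13.9%. With canonical lengths the share of S100A1 was 42.7% to 48.4% in EV and 26.2% to 33.6% in HDAC8, and that of S100B 7.44% to 9.30% and 5.995% to 7.69%.

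Of the 11 other S100 genes in the table, 5 (S100A7, S100A7L2, S100A12, S100G and S100Z) had no count in any library. S100A5, S100A7A, S100A8 and S100A9 had counts in 1 library each, of 12 to 39 counts. S100A10, which has lost calcium binding and forms a tetramer with annexin A2, was the only other abundant one. It had 1309.7, 1043.2 and 1347.7 normalized counts in EV 1 to 3 and 1428.8, 1902.9 and 1843.6 in HDAC8 1 to 3. The groups did not overlap, and the difference was 0.48 on the log2 scale (SE 0.21, DESeq2 adjusted p = 0.108), not called. Without HDAC8 replicate 1 it was 0.60 and called (DESeq2 adjusted p = 0.0157). S100A14, an epithelial member, had 0, 17.7 and 0 normalized counts in EV and 65.0, 29.7 and 16.3 in HDAC8, with overlap (2.64 on the log2 scale, SE 1.64, DESeq2 adjusted p = 0.350). It was called with the replicate block (DESeq2 adjusted p = 0.0368) and without EV replicate 2 (0.00587), which left the EV group without counts. None of the 11 was called by DESeq2, edgeR or limma-voom, and 1, S100A10, had an unadjusted DESeq2 p under 0.05. The median log2 fold change of the 6 tested was 3.44, or 0.46 with genes at the floor in one group set to their bound against 3 counts.

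**Figure D3:**
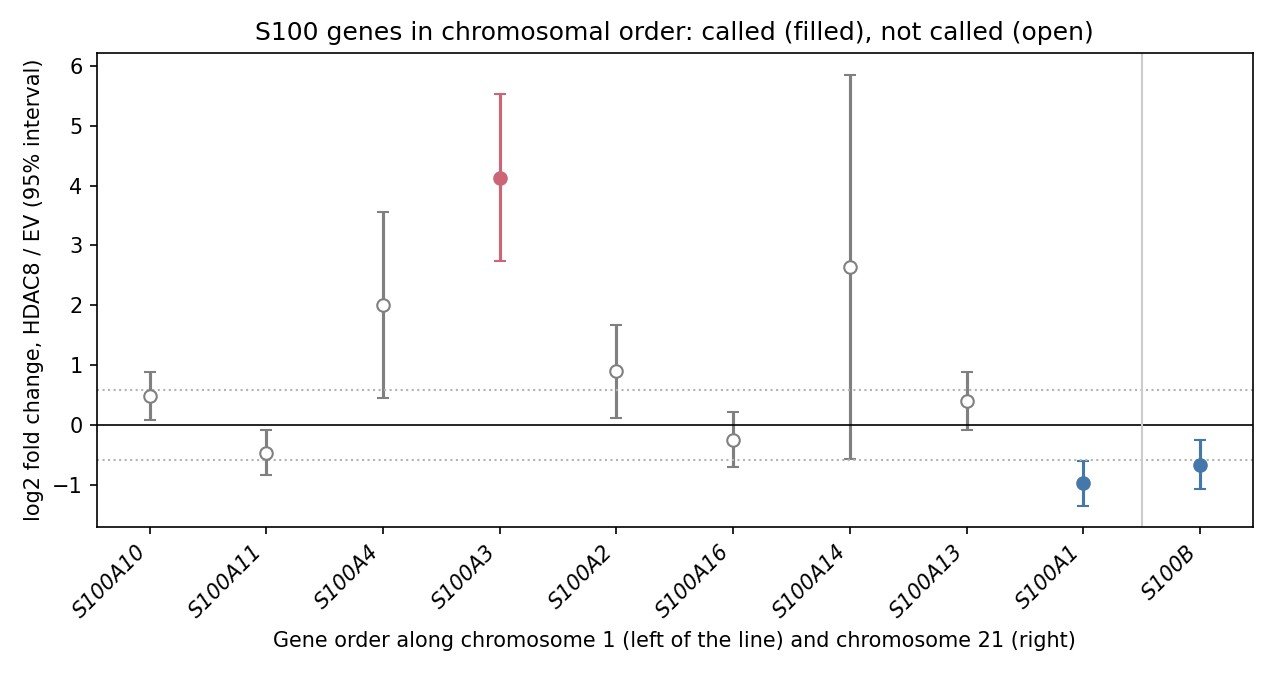
log2 fold change of HDAC8 over EV with its 95% interval (vertical axis) for S100 genes placed in their order along chromosome 1 and, right of the line, S100B on chromosome 21, filled where called. S100A3 at 4.13 is filled and its neighbours S100A4 at 2.01 and S100A2 at 0.89 are open, while S100A11 at -0.46 and S100A16 at -0.24 lie below 0 and S100A1 at -0.98 is filled. Genes with all counts of one group at 0 were left out.

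The chromosome 1 genes were set beside their neighbours. On GENCODE 44 positions (GRCh38, the build of the deposited table not being given in the sources used here) the genes run from S100A10 (chromosome 1, 151982915 to 151993859, minus strand) and S100A11 (152032506 to 152047907, minus strand) to S100A3 (153547329 to 153549258, minus strand), S100A4 (153543613 to 153550136, minus strand) and S100A1 (153627926 to 153632039, plus strand). S100A3 lies within the span of S100A4 but shares 0 exonic bases with it. The stretch held 70 other genes of the table, of which 11 had enough counts to be tested and 6 had an adjusted p. Of these 6, 0 were called higher and 1 lower, where 5.57% and 5.44% of all genes were. That was SPRR2D, a cornified envelope gene of keratinocytes, with 561.0, 586.5 and 464.0 normalized counts in EV 1 to 3 and 137.7, 198.7 and 259.2 in HDAC8 1 to 3 (-1.44 on the log2 scale, SE 0.35, DESeq2 adjusted p = 6.51e-04).

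Partners that S100 proteins bind inside the cell were taken from a list of 29 genes written from general knowledge. Earlier results of these data were known when the list was written, so its share of calls is a description only. Of these, 5 were called higher and 1 lower, 20.7% of the list beside 11.0% of all genes, and the list's median log2 fold change was 0.03. ANXA1, annexin A1, the partner of S100A11, rose most. It had 827.3, 718.2 and 691.6 normalized counts in EV 1 to 3 and 4548.2, 5485.3 and 4533.3 in HDAC8 1 to 3, far above the EV libraries. Its change was 2.70 on the log2 scale (SE 0.17, DESeq2 adjusted p = 7.96e-55). ANXA2, the partner of S100A10, rose from 10579.0 ± 806.2 to 22047.5 ± 566.8 (SD, n = 3), with a log2 fold change of 1.06 (DESeq2 adjusted p = 1.26e-15). FGF1, the growth factor released with S100A13, rose from 241.9 ± 78.8 to 603.2 ± 60.5 (a log2 difference of 1.32 with DESeq2 adjusted p = 0.00166). The most abundant partner, AHNAK, a large scaffold bound by S100A10 with annexin A2, had 43706.4 ± 3968.2 and 60867.3 ± 3112.3, a log2 fold change of 0.48 that missed the fold minimum (DESeq2 adjusted p = 0.00182).

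A pair of partners was added to the named genes after their values were seen, since both were called. MYH9, the non-muscle myosin heavy chain bound by S100A4, had 22478.9, 31959.2 and 27299.8 normalized counts in EV 1 to 3 and 60629.5, 38656.5 and 40352.2 in HDAC8 1 to 3, with HDAC8 1 the highest (0.77 on the log2 scale, SE 0.18, DESeq2 adjusted p = 4.16e-04). CACYBP, the calcyclin-binding protein named for S100A6, was the call in the other direction. It had 1867.6, 1758.6 and 2193.9 in EV 1 to 3 and 1018.4, 1251.5 and 1094.4 in HDAC8 1 to 3, without overlap (-0.79 on the log2 scale, SE 0.19, DESeq2 adjusted p = 7.82e-04).

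**Figure D4:**
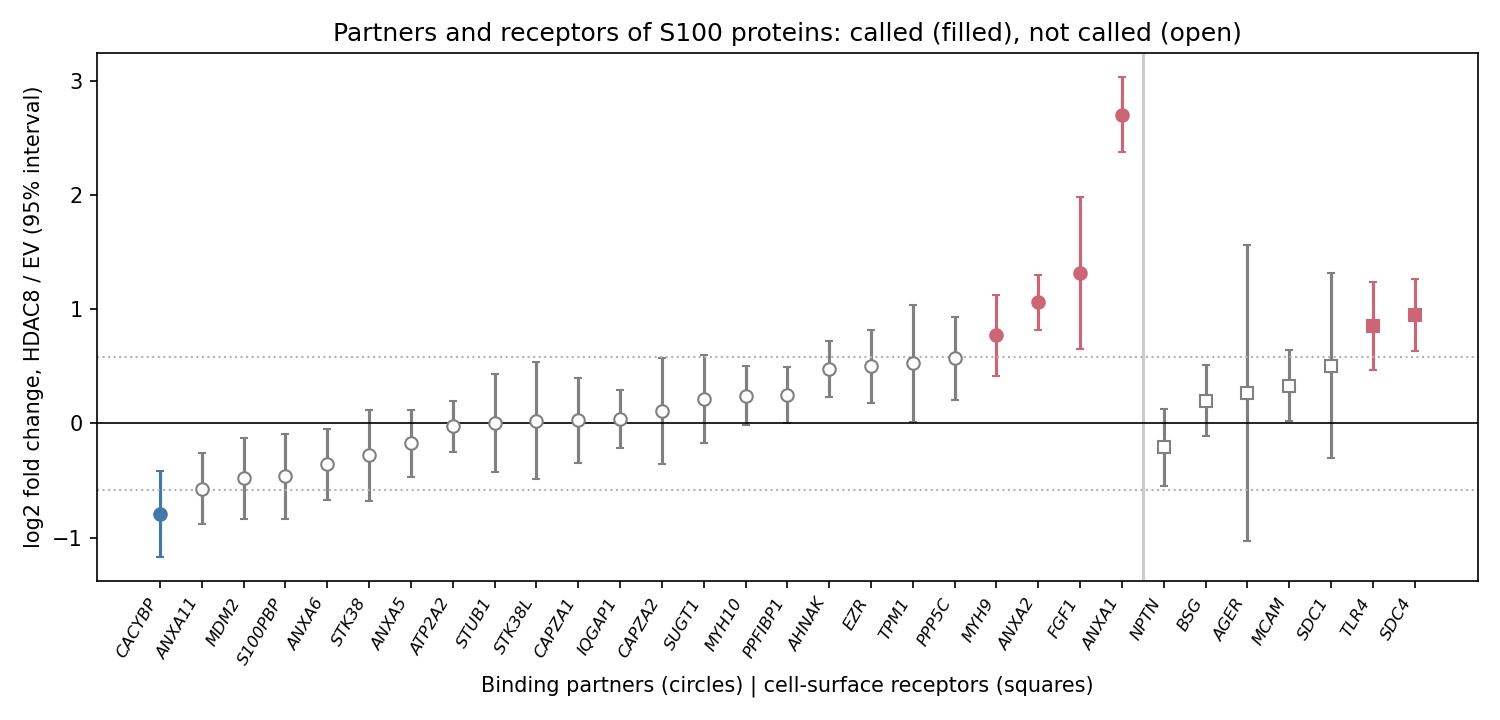
log2 fold change of HDAC8 over EV with its 95% interval (vertical axis) for 24 binding partners (circles) and 7 cell-surface receptors (squares) of S100 proteins averaging 50 or more normalized counts, filled where called. ANXA1 at 2.70, FGF1, ANXA2 and MYH9 are the filled partners above 0 and CACYBP at -0.79 the filled one below, with TLR4 and SDC4 the filled receptors.

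Of 9 cell-surface genes listed as receptors or docking proteins of S100 proteins, 2 were called higher and 0 lower, where 5.57% of all genes were called higher and 5.44% lower. DESeq2 gave 8 of the 9 an adjusted p, and the median log2 fold change of the 9 was 0.51. TLR4, the innate receptor for S100A8 and S100A9, had 1535.2, 1421.4 and 1870.8 normalized counts in EV 1 to 3 and 2314.7, 3099.1 and 3312.6 in HDAC8 1 to 3. The groups did not overlap (0.85 on the log2 scale, SE 0.20, DESeq2 adjusted p = 3.11e-04). SDC4, a heparan sulfate syndecan, rose from 2500.3 ± 339.0 to 4824.7 ± 348.7 (SD, n = 3), with a log2 fold change of 0.95 (DESeq2 adjusted p = 1.93e-07). AGER, which encodes RAGE, ranged from 85.0 to 158.3 in EV and from 38.9 to 230.9 in HDAC8 (0.27 on the log2 scale, SE 0.66, DESeq2 adjusted p = 0.900). BSG, which encodes basigin, was the most abundant of the 9, with a log2 fold change of 0.20 (DESeq2 adjusted p = 0.518). Leukocytes could also carry S100 and TLR4 transcripts. Of 5 leukocyte markers 1 was called higher, CD3E, at 0 in all EV libraries and 78.7, 91.1 and 50.1 in HDAC8 1 to 3, while PTPRC was at or below 2.57 in every library. The summed level of the 5 was 52.3 to 229.5 normalized counts in EV and 130.0 to 268.3 in HDAC8. LYZ by itself had 52.3 to 229.5 in EV and 48.7 to 156.7 in HDAC8. Fibroblasts express S100A4 and S100A6. Of 5 fibroblast markers none was called, DCN was at 0 in every library, and the summed level was 2347.0 to 2869.0 in EV and 1150.1 to 2187.6 in HDAC8, most of it LUM. The part of other cells in the S100 values was not tested.

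The genes whose values on the log2(normalized count + 1) scale followed S100B most closely over the 6 libraries, among 14450 genes with a mean of at least 50, were PFKFB3 (Pearson r = 0.9995), CBS (r = 0.998) and ZNF304 (r = 0.995). PFKFB3 makes a regulator of glycolysis and CBS the cystathionine synthase of sulfur amino acid metabolism. The 6 points share the split into groups, so a fall in common gives part of a high r. In each of these genes, as in S100B, HDAC8 1 was the highest HDAC8 library and HDAC8 2 the lowest. Picking the highest r among 14450 genes over 6 libraries nearly fixes that order, so it is no further evidence of a link to S100B. The log2 fold changes were -0.75 for PFKFB3, -0.95 for CBS and -1.05 for ZNF304. Of them, PFKFB3 and CBS were called (DESeq2 adjusted p = 3.19e-04 and 3.33e-05). CBS has a near-identical copy in some genome builds that can share its reads.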

How the data were processed

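RNA-seq was carried out by the study on WM164 cells, 3 libraries with an empty vector and 3 with an HDAC8 vector. The labels name an Aurum kit for RNA and the study's methods a Direct-zol kit. Per the labels, the authors used Trimmomatic for trimming, STAR for alignment and RSEM for quantification. What they deposited are RSEM's expected counts for each gene, with no scaling between libraries, and these were rounded to whole numbers here. The groups were compared in DESeq2 1.42.0 (R 4.3.3) with a two-sided Wald test, default size factors and group as the only term, on the 26162 genes whose counts summed to 10 or more. DESeq2 gave no adjusted p to 5141 of these. Calls needed an adjusted p under 0.05 and a log2 change of 0.58 or more either way. P-values measure the spread between these 3 libraries per group.

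The members and gene lists were chosen with earlier results of these data known. Named genes were the 10 members, HDAC8, other S100 genes averaging 10 or more normalized counts, up to 4 called genes and the most abundant gene per list, called neighbours, and the 3 genes most like S100B. Alternatives were edgeR 4.0.16, limma-voom (limma 3.58.1), other scalings and filters, a replicate block, a test against the fold minimum, and each library left out in turn. The fits were tested on simulated data. No library repeated another: within groups, chi-square divided by its degrees of freedom was 26.0 to 153.4. Transcript lengths came from GENCODE 44, which held 56558 of the 60504 identifiers, and promoter sequences from RefSeq. Single genes of some lists, 1 called binding partner among them, are counted with their list but not reported here.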

Additional observations from a re-analysis of the deposited data

How the results depend on the processing

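Of the S100 genes, S100A3 kept direction and call in every alternative that gave it a value, and S100A1 in all but the test against the fold minimum (log2 fold change -0.98, adjusted p = 0.603), given per gene after seeing the data. Having at least 10 counts in every library removed S100A3, S100A4, S100A6 and S100P. S100B lost its call in the test against the fold minimum (-0.66), with limma-voom (log2 fold change -0.67) and the replicate block (-0.67), and ran from -0.76 to -0.57 when single libraries were left out. S100A2 gained a call with at least 10 counts in every library (0.90). The number of S100 members called lower was 1 with limma-voom, 1 with the replicate block, 0 in the test against the fold minimum, and 1 to 2 without single libraries. Same-numbered libraries gave no sign of pairing (correlations of deviations -0.03, -0.07 and 0.04 for numbers 1 to 3), which does not show that they were prepared separately. The block also gave 1 higher call among the other S100 genes and 2 lower binding partners, and limma-voom 2. With single libraries left out, other S100 genes had 0 to 1 higher calls, binding partners 1 to 3 lower, EF-hand sensors 0 to 2 higher, and keratinocyte and fibroblast markers 0 to 1 lower each. The higher leukocyte marker, CD3E, dropped out (0 calls) with at least 10 counts in every library, since it had none in EV. Over all genes the test against the fold minimum called 292 higher and 291 lower, and leaving out single libraries 877 to 1218 higher and 746 to 1378 lower, with 877 without HDAC8 replicate 3 and 746 without EV replicate 3. Coding lengths kept 6 of 10 members at their place in the order per length, and canonical transcript lengths, added after seeing the data, 3. The cause of these changes was not tested beyond what the filters remove. Depth limits S100A3, S100A4, S100A6 and S100P most, at 45 or fewer counts in every EV library.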

Other observations

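Calcium sensors outside the S100 family were examined as a list of 18 other EF-hand genes, among them sorcin and the reticulocalbins. None was called in either direction by DESeq2, edgeR or limma-voom, where 11.0% of all genes were called, and 3 of the 17 tested had an unadjusted DESeq2 p under 0.05. The median log2 fold change was 0.03. CALU, calumenin of the secretory pathway, was the most abundant, with 36427.4, 34743.3 and 39341.0 normalized counts in EV 1 to 3 and 38982.3, 62728.1 and 58875.3 in HDAC8 1 to 3. HDAC8 1 lay within the EV range and the others far above it, with a log2 fold change of 0.54 that missed the fold minimum (DESeq2 adjusted p = 0.0131).

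The S100-fused-type proteins of the skin barrier, encoded in the same stretch of chromosome 1, were not called either. Of 7 genes, 3 had no count in any library and 3 could be tested, none with an unadjusted DESeq2 p under 0.05 and none called by edgeR or limma-voom. Their median log2 fold change was 0.42. HRNR, hornerin, was the most abundant, with 346.0, 419.3 and 209.8 normalized counts in EV 1 to 3 and 613.9, 342.1 and 351.7 in HDAC8 1 to 3, overlapping groups with HDAC8 1 the highest (a log2 difference of 0.42 with DESeq2 adjusted p = 0.590).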
